A study of Mus musculus with 36 samples.

Results

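The miR-30 family was followed in the mouse prostate as 8 mature miRNAs, taken by name from the 1963 mature miRNAs listed in the small RNA sequencing tables. Of these, 3 come only from the chromosome 1 locus that holds the Mir30a and Mir30c-2 hairpins, and they were kept apart from the other 5. The locus members are mmu-miR-30a-5p, mmu-miR-30a-3p and mmu-miR-30c-2-3p. The others are mmu-miR-30b-5p, mmu-miR-30c-5p, mmu-miR-30d-5p, mmu-miR-30e-5p and mmu-miR-30e-3p, where 5p and 3p name the arm of the hairpin. The prefix for mouse is left out from here on. All 8 had reads in each of the 36 libraries.

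The study asked how loss or mutation of ELAC2, the ribonuclease that trims the 3′ end of precursor transfer RNAs, acts on prostate tumour formation. Libraries were made from total RNA of frozen ventral and lateral prostate lobes of male C56NL/6N mice (the strain as labelled), at 10 and 30 weeks of age, with 3 libraries in each of 12 groups. WT mice carried the unaltered gene (ELAC2+/+). KO mice (ELAC2-/-) lost it in the prostate through Cre under the probasin promoter, which is active in prostatic epithelium, so the other cells of the lobes keep the gene. A537T mice (ELAC2A537T) carried, in every cell, an alanine-to-threonine change. Each line was studied without a transgene and as WT-TRAMP, KO-TRAMP and A537T-TRAMP, which were heterozygous for the TRAMP transgene, where the probasin promoter drives SV40 T antigens in the same epithelium. The study describes its replicates as biological, with 3 mice of each line and age. The group of a library rests on which tables hold its column, and the small RNA tables used here hold no Elac2 messenger RNA that could check it.

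A miRNA is cut from a hairpin transcript by Drosha and Dicer and then loaded into an Argonaute protein, where its seed pairs with messenger RNAs and lowers their output. The miR-30 family is expressed in many epithelia and is known for holding back the change from an epithelial to a mesenchymal state. Its 5p arms share a seed and are the strands usually loaded, while the 3p arms carry other seeds and are usually the minor strand.

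The sequences are shown to make clear which members can act on the same targets and which can be mistaken for each other in read counting. RefSeq sequences on GRCm38.p6 were found for 6 of the 8 members, and capitals mark the seed, bases 2 to 8. The 5p members shown share the seed GUAAACA.
miR-30a-5p: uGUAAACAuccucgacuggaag
miR-30c-5p: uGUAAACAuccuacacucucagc
miR-30e-5p: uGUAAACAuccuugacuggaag

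The 3p arms of Mir30a and Mir30e share another seed, and the arm of Mir30c-2 has its own.
miR-30a-3p: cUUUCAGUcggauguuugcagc
miR-30e-3p: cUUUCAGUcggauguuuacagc
miR-30c-2-3p: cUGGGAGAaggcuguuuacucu

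Over their 22 bases, miR-30a-5p and miR-30e-5p differ by 1 substitution, C13U, and miR-30a-3p and miR-30e-3p by 1, G18A, counted from 1 at the 5′ end. Read assignment within each pair is therefore uncertain, as the mismatch setting of the counting is not given in the sources used here. miR-30c-5p has 23 bases and 2 origins, Mir30c-2 on chromosome 1 and Mir30c-1 on chromosome 4. Its reads were summed over both, so it could not be placed with the locus. miR-30b-5p and miR-30d-5p are named without a sequence.

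The Mir30a hairpin lies at chr1:23272269-23272339 on the plus strand, outside any other annotated gene and 94085 bases from the nearest coding gene, Ogfrl1. Mir30c-2 follows 19361 bases further on at chr1:23291701-23291784, on the same strand, in an exon of the long noncoding RNA Gm27028. Mir30c-1 (chr4:120769534-120769622) and Mir30e (chr4:120772606-120772697) lie 2983 bases apart on the minus strand, inside introns of Nfyc, which encodes a subunit of the CCAAT-binding factor NF-Y. Mir30b (chr15:68337415-68337510) lies in an exon of the noncoding transcript Gm26621. Mir30d (chr15:68341208-68341289), 3697 bases away, lies in an exon of the long noncoding RNA Gm20732, and both are on the minus strand.

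Levels are given as RPM, the reads of a miRNA scaled to the same total of miRNA reads in every library. Sequencing depth was 4544257 to 21870210 miRNA reads in 35 libraries and 655455 in library 35, from A537T mice of 10 weeks, where the least abundant member still had 102 reads. Libraries are named by the number in their column. Together the 8 members took 2.37% to 4.59% of the miRNA reads of a library. Since ligation and amplification favour some sequences, levels of different miRNAs are compared with that limit.

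miR-30a-5p and miR-30d-5p were the most abundant members, with mean levels over the 36 libraries of 12366 and 11613 RPM, places 16 and 17 among all miRNAs. miR-30c-5p followed at 7416 RPM, miR-30b-5p at 2254 RPM and miR-30e-5p at 1565 RPM. The 3p arms were lower, at 813 RPM for miR-30a-3p, 379 RPM for miR-30e-3p and 181 RPM for miR-30c-2-3p. As shares of the reads of the 8 members, miR-30a-5p took 33.6% ± 6.72 (SD, n = 36), miR-30d-5p 32.1% ± 7.90 and miR-30b-5p 6.14% ± 1.96. The 5p strands thus made up nearly all of the family's reads, and the lead passed between miR-30a-5p and miR-30d-5p from library to library.

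Library make-up differed between groups, and it is given here through miRNAs typical of other cells. All 8 miRNAs of a skeletal muscle list (miR-1 and miR-133 among them) were found, with none at 0 in all libraries. Their sum was 0.736% to 30.7% of reads (median 8.36%) in the 9 libraries of 10 weeks without TRAMP and 0.218% to 3.09% with TRAMP. At 30 weeks it was 0.937% at most. All 5 miRNAs of a stroma and smooth muscle list (miR-143, miR-145a, miR-199 and miR-214) were found. Their sum had a median of 30.4% (7.21% to 40.2%) without TRAMP and 11.4% (7.59% to 22.8%) with it at 10 weeks, and of 24.4% (12.9% to 29.8%) and 14.3% (6.36% to 34.4%) at 30 weeks. An epithelial list of 7, the miR-200 family with miR-203 and miR-205, ran from 3.91% to 6.70% without TRAMP and from 6.07% to 9.33% with it at 10 weeks. The endothelial pair of miR-126 arms summed to 1.24% to 1.86% without TRAMP and 0.493% to 1.11% with it at that age. The 3 miRNAs of a red cell list took 0.0137% to 0.0615% of reads with TRAMP and 0.105% to 0.193% without at 10 weeks, ranges that did not overlap. The 4 of a white blood cell list took 0.0608% to 0.158% with TRAMP and 0.0209% to 0.0574% without at 30 weeks, again without overlap. For the epithelial, endothelial and red cell lists the 2 ranges overlapped at 30 weeks, and for the white blood cell list at 10 weeks. Epithelial medians at 30 weeks were 8.03% without TRAMP and 7.31% with it. The part of any of these lists in the results that follow was not tested. In whole lobes, fewer cells of a type and less RNA per cell cannot be told apart.

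**Figure D1:**
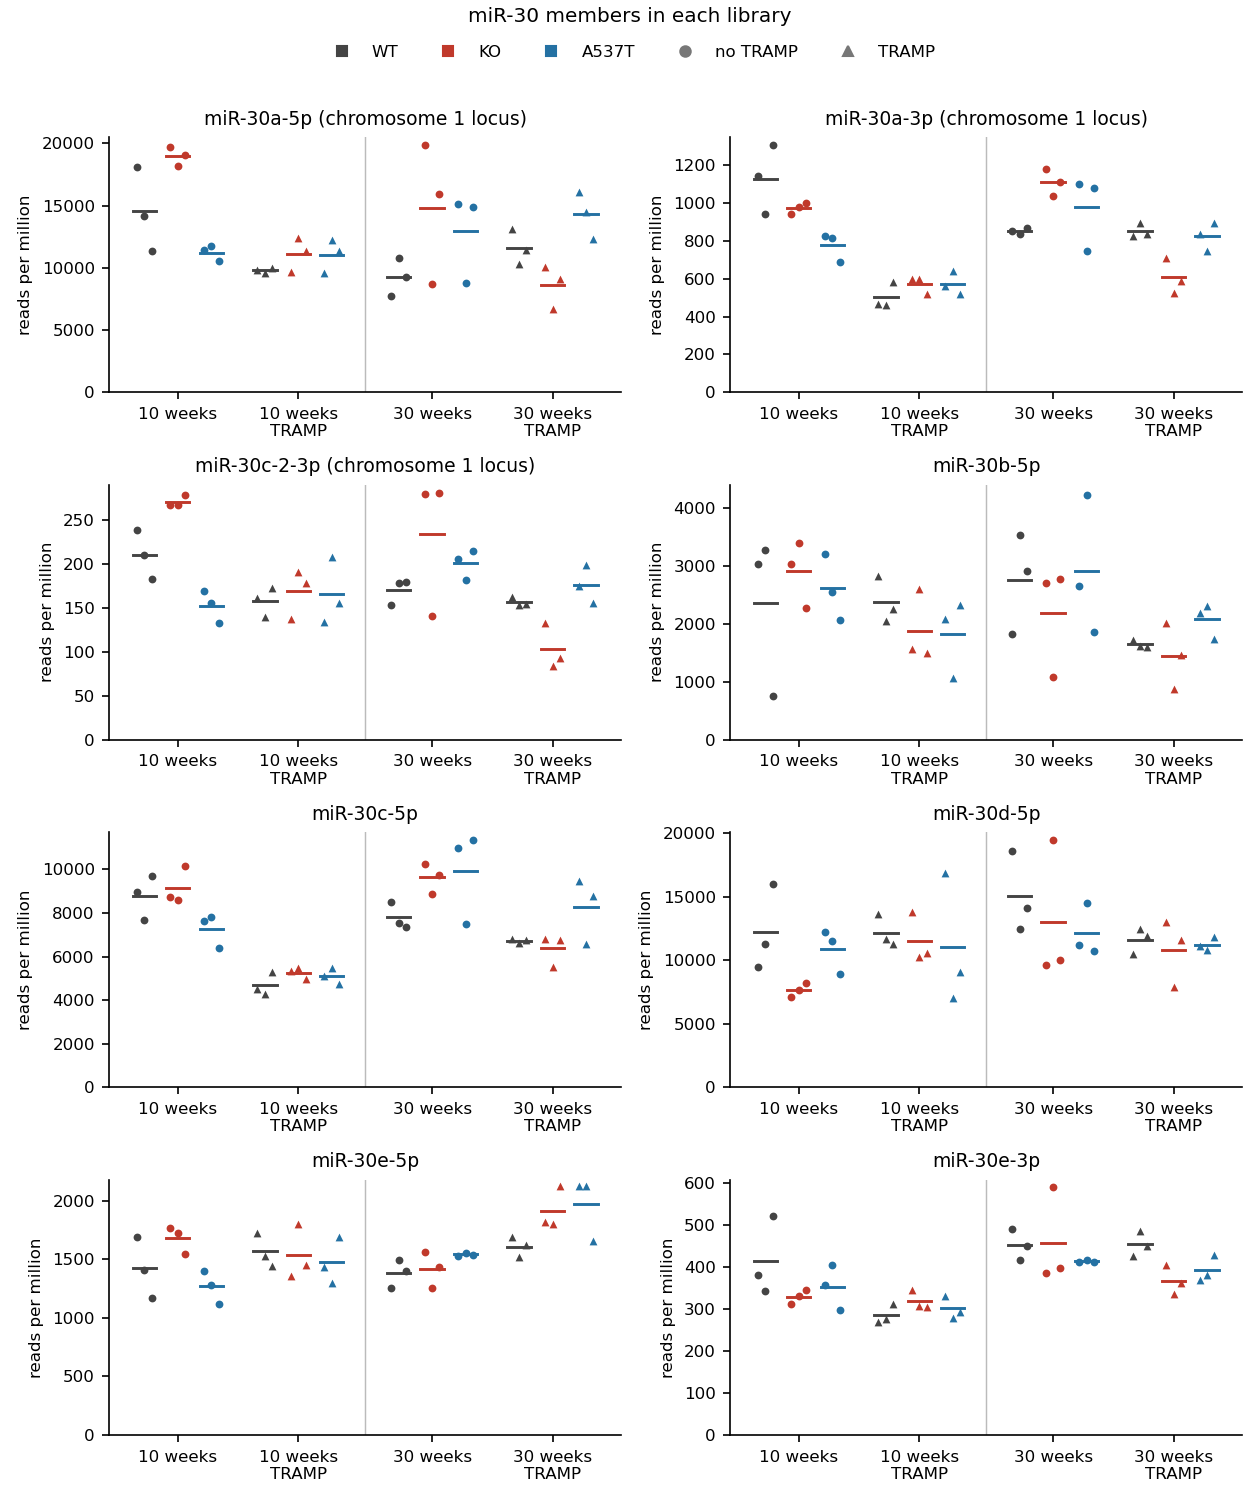
Level of each of the 8 members in each library, in RPM on linear axes that start at 0, by age and TRAMP background. Points are libraries, circles without and triangles with the transgene, and bars are means of 3. At 10 weeks the 9 TRAMP libraries lie below the 9 others for miR-30a-3p and miR-30c-5p.

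TRAMP and non-TRAMP lobes were compared first. At 10 weeks miR-30a-3p and miR-30c-5p were lower with the transgene in all 3 genotypes. miR-30a-3p, the minor strand of the Mir30a hairpin, ran from 460 to 639 RPM (median 563) in the 9 TRAMP libraries and from 691 to 1308 RPM (median 944) in the 9 others. miR-30c-5p, a 5p strand with the family's shared seed, ran from 4292 to 5468 RPM (median 5101) with TRAMP and from 6411 to 10144 RPM (median 8574) without. The 2 ranges of each did not overlap. Here and below, overlap was looked at only for the miRNAs and lists named, so no share of all miRNAs stands beside it. By limma, 336 of the 514 miRNAs tested differed with TRAMP at this age, averaged over the genotypes.

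Averaged over the genotypes, the log2 fold change was −0.79 ± 0.09 (SE) for miR-30a-3p (limma, Benjamini-Hochberg adjusted p = 2.3e-08) and −0.74 ± 0.09 for miR-30c-5p (limma, adjusted p = 7.2e-08). Fold changes are on the log2(RPM + 1) scale. At this age the median of the 514 miRNAs tested was itself −0.28, so relative to it the values were −0.50 and −0.45. That median moved to −0.13 with median-of-ratios scaling and to −0.68 with totals that left out the muscle and stroma lists. Relative to the median of each, miR-30a-3p stayed between −0.78 and −0.39 and miR-30c-5p between −0.73 and −0.34 over the 12 settings tried, and both passed the test in each.

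In all, 5 of the 8 members fell with TRAMP at 10 weeks, where 39.9% of all miRNAs tested did. The other 3 that passed were miR-30a-5p, the main strand of its hairpin (log2 −0.45 ± 0.13, limma adjusted p = 0.0049), miR-30c-2-3p (−0.33 ± 0.12, limma adjusted p = 0.020) and miR-30e-3p (−0.26 ± 0.09, limma adjusted p = 0.016). miR-30a-5p had 9579.7 to 12431 RPM with TRAMP and 10521 to 19755 RPM without, so its groups overlapped. All 3 calls were lost with median-of-ratios or TMM scaling and in DESeq2, and those of miR-30c-2-3p and miR-30e-3p in edgeR as well. The miR-30c-2-3p call was also lost without library 4 or library 7 (log2 −0.29, limma adjusted p = 0.0538 without the latter). Relative to the median of all miRNAs, miR-30c-2-3p was at −0.05 and miR-30e-3p at 0.02, and both values changed sign with the scaling.

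With RPM no member was called higher by limma at 10 weeks, where 25.5% of all miRNAs were, and 0 had an unadjusted p under 0.05 in that direction. edgeR called 0 members higher and DESeq2 1. Log2 values were 0.18 ± 0.15 for miR-30d-5p, 0.08 ± 0.09 for miR-30e-5p and −0.32 ± 0.25 for miR-30b-5p, and the signs of the miR-30d-5p and miR-30e-5p values turned with the scaling. miR-30e-5p was called higher with median-of-ratios scaling (0.28, limma adjusted p = 0.0025), with TMM scaling (0.20, limma adjusted p = 0.029) and in DESeq2 (0.25, adjusted p = 0.0014). It was called lower when the muscle and stroma lists were left out of the totals (−0.38, limma adjusted p = 0.0031), as were miR-30b-5p (−0.77) and miR-30d-5p (−0.28). miR-30d-5p spanned 7054 to 16855 RPM with TRAMP and 7125 to 15957 RPM without, almost the same range.

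Within each genotype at 10 weeks, miR-30a-3p and miR-30c-5p passed the test every time. In WT, miR-30a-3p stood at 1143, 941 and 1308 RPM without TRAMP and at 467, 459.8 and 583 RPM with it. This was a log2 fold change of −1.16 ± 0.15 (limma adjusted p = 8.2e-07), next to −0.90 ± 0.15 for miR-30c-5p. miR-30e-3p (−0.52 ± 0.16, limma adjusted p = 0.013) was the remaining WT call of 3, in a comparison where 14.2% of all miRNAs were lower. It was lost without library 30 (−0.34, limma adjusted p = 0.103) or library 1. Library 30 had the highest WT level, 522 RPM against 383 and 343 RPM, and the highest skeletal muscle sum of the 36 libraries, 30.7%. The call was also lost with median-of-ratios scaling and in a fit of only the libraries compared.

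In KO mice at 10 weeks, all 3 locus members and miR-30c-5p were lower with TRAMP, 4 of 8, against 28.4% of all miRNAs. miR-30a-5p had 19755, 18214 and 19048 RPM in KO and 9635, 12431 and 11369.5 RPM in KO-TRAMP. miR-30c-2-3p had 267, 267 and 278 RPM in KO and 137, 191 and 178 RPM in KO-TRAMP. Neither pair of groups overlapped, and the log2 fold changes were −0.78 ± 0.23 and −0.69 ± 0.21 (limma adjusted p = 0.010 and 0.012). Without library 7 they became −0.68 (limma adjusted p = 0.0641) and −0.55 (limma adjusted p = 0.0924). The values for miR-30a-3p and miR-30c-5p were −0.77 and −0.79. All 4 calls were lost with median-of-ratios or TMM scaling and in DESeq2, and that of miR-30c-2-3p in edgeR too. miR-30d-5p lay the other way, with 13760.4, 10265 and 10580.1 RPM in KO-TRAMP above the 7125, 7639 and 8230.3 RPM of KO (0.58 ± 0.27, limma adjusted p = 0.075). edgeR called 3 members lower and 1 higher in this comparison, and DESeq2 0 lower and 1 higher.

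In A537T mice 2 members were called at 10 weeks, miR-30a-3p at −0.44 ± 0.15 (limma adjusted p = 0.028) and miR-30c-5p at −0.51 ± 0.15 (limma adjusted p = 0.012), against 22.4% of all miRNAs. In the A537T libraries miR-30a-3p had 826, 816 and 691 RPM, and in A537T-TRAMP 563, 639 and 519.7 RPM, with no overlap. The miR-30a-3p call was lost without any of 4 libraries (−0.37, limma adjusted p = 0.0994 without library 6) and the miR-30c-5p call without the shallow library 35 (−0.46, limma adjusted p = 0.0509). Both were lost with median-of-ratios or TMM scaling, in a fit of only the libraries compared, in edgeR and in DESeq2. Whether the TRAMP difference itself varied between genotypes at this age was tested as an interaction, and 0 of 8 members passed for KO or for A537T (limma, lowest adjusted p = 0.34). At an unadjusted p under 0.05 there was 1 member for each, and edgeR and DESeq2 called 0.

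**Figure D2:**
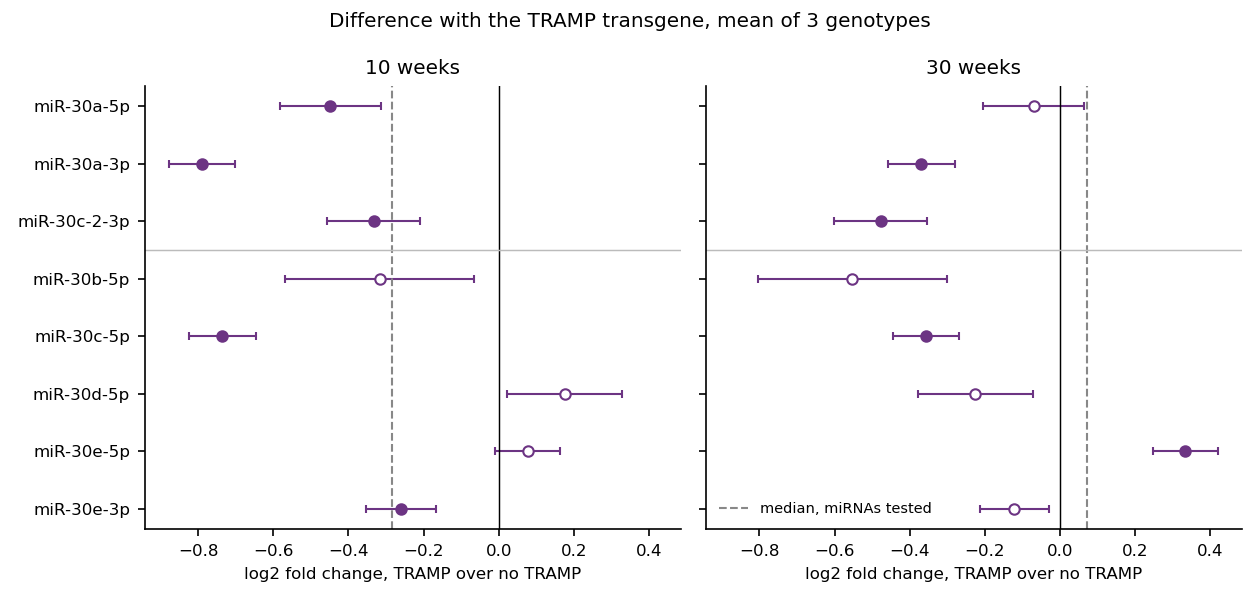
Log2 fold change of each member, TRAMP over no TRAMP, averaged over the 3 genotypes, at 10 weeks (left) and 30 weeks (right). Bars are standard errors, filled points passed a limma adjusted p of 0.05, the dashed line is the median of all 514 miRNAs and the grey line separates the locus members above from the others. miR-30a-3p lies at −0.79 at 10 weeks and −0.37 at 30 weeks.

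At 30 weeks 3 members were lower and 1 was higher with TRAMP, where 16.3% of all miRNAs were lower and 28.8% higher. The lower members were miR-30c-2-3p (log2 −0.48 ± 0.12, limma adjusted p = 0.0024), miR-30a-3p (−0.37 ± 0.09, limma adjusted p = 0.0012) and miR-30c-5p (−0.36 ± 0.09, limma adjusted p = 0.0016). All 3 passed in each of the 12 settings and without each library in turn. These are means over genotypes, and within genotypes limma called the 3 lower in KO only, as given below. The median of all miRNAs was 0.07. miR-30a-3p ran from 524 to 894 RPM (median 825) with TRAMP and from 748 to 1184 RPM (median 1039) without, so the groups overlapped.

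miR-30e-5p, which shares its seed and all but 1 base with miR-30a-5p, rose at 30 weeks (log2 0.33 ± 0.09, limma adjusted p = 0.0024). It had 1516 to 2128 RPM (median 1803) with TRAMP and 1251 to 1565 RPM (median 1497) without, and only the low end of the TRAMP range overlapped. The rise passed in 11 of 12 settings and was lost when the muscle and stroma lists were left out of the totals (limma adjusted p = 0.0747). Its partner arm miR-30e-3p had a value of −0.12 ± 0.09. The remaining members did not pass in limma with RPM, at −0.07 ± 0.13 for miR-30a-5p, −0.55 ± 0.25 for miR-30b-5p and −0.23 ± 0.15 for miR-30d-5p. For miR-30b-5p the adjusted p was 0.075 (limma), and its TRAMP range of 879 to 2320.0 RPM overlapped that of 1086 to 4237 RPM without TRAMP. It was called lower in 5 of the 12 settings, edgeR (−0.70, adjusted p = 0.011) and DESeq2 (−0.71, adjusted p = 0.0022) among them, so both tools called 4 members lower and 1 higher. Without the muscle and stroma lists in the totals, miR-30d-5p and miR-30e-3p were called lower as well.

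Within genotypes at 30 weeks, limma calls were made in KO mice. miR-30c-2-3p had 279.7, 141 and 280.5 RPM in KO and 133, 84.2 and 93.1 RPM in KO-TRAMP, without overlap, a log2 fold change of −1.13 ± 0.21 (limma adjusted p = 0.00019). miR-30a-3p had 1184, 1039 and 1113 RPM in KO and 709, 524 and 591 RPM in KO-TRAMP (−0.88 ± 0.15, limma adjusted p = 6.0e-05). miR-30c-5p (−0.60 ± 0.15) and miR-30a-5p (−0.72 ± 0.23, limma adjusted p = 0.015) made 4 of 8 members lower, against 8.56% of all miRNAs. Of the 11 alternatives, a fit of only the libraries compared lost all of these calls except that of miR-30a-3p.

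The miR-30a-5p groups overlapped, since library 23 had 8665 RPM where the other KO libraries had 19863 and 15956 RPM. Its call was lost without library 22 (−0.47, limma adjusted p = 0.143), 17 or 24, and without library 23 the value was −1.07 (limma adjusted p = 0.000575). miR-30e-5p was higher in KO-TRAMP, at 1816, 1803 and 2126 RPM against 1565, 1254 and 1434 RPM (0.44 ± 0.15, limma adjusted p = 0.022), where 27.2% of all miRNAs were higher. That call was lost in 6 of 11 alternatives, among them median-of-ratios and TMM scaling, and without library 18 (0.36, limma adjusted p = 0.117) or library 23 (0.35, limma adjusted p = 0.0989).

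In WT at 30 weeks limma called 0 of 8 members lower with TRAMP, against 14.8% of all miRNAs, and 0 at an unadjusted p under 0.05. edgeR and DESeq2 called 0 as well. miR-30a-3p was at −0.00 ± 0.15 and miR-30c-5p at −0.21 ± 0.15. In A537T limma also called 0 of 8 lower (0 at an unadjusted p under 0.05), as did edgeR and DESeq2, against 2.33% of all miRNAs, with values of −0.22 ± 0.15 for miR-30a-3p and −0.19 ± 0.21 for miR-30c-2-3p.

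Age was compared next, as the mean over genotypes of 30 against 10 weeks. Without TRAMP 1 member was called higher, miR-30e-3p (log2 0.28 ± 0.09, limma adjusted p = 0.021), where 12.8% of all miRNAs were higher, and 0 of 8 lower, where 20.6% were. At an unadjusted p under 0.05 there was 1 member lower, and edgeR and DESeq2 called 0 lower. miR-30e-3p ran from 297 to 522 RPM (median 345) at 10 weeks and from 386 to 592 RPM (median 417) at 30 weeks. The call was lost in 5 of 11 alternatives, edgeR among them, and without library 23 (0.21, limma adjusted p = 0.063), 29 or 36, and the value became −0.02 (limma adjusted p = 0.866) when the muscle and stroma lists were left out of the totals. With those totals 3 members were lower instead, miR-30a-5p (−0.60, limma adjusted p = 0.0041), miR-30a-3p (−0.26, limma adjusted p = 0.043) and miR-30e-5p (−0.29, limma adjusted p = 0.032), and without the muscle list alone miR-30a-5p was (−0.46, limma adjusted p = 0.0061). miR-30a-5p (−0.30 ± 0.13) and miR-30d-5p (0.39 ± 0.15) missed the threshold (limma adjusted p = 0.082 and 0.052), and miR-30d-5p was called higher with median-of-ratios or TMM scaling, with a filter of 10 RPM and in DESeq2.

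With TRAMP 4 members were higher at 30 weeks, where 20.2% of all miRNAs were, and 0 of 8 were lower by limma or at an unadjusted p under 0.05, where 7.2% were. edgeR and DESeq2 each called 1 lower, miR-30c-2-3p (−0.37, adjusted p = 0.026 in edgeR and −0.34, adjusted p = 0.027 in DESeq2), as did limma with median-of-ratios scaling (−0.34, adjusted p = 0.036). miR-30c-5p rose (log2 0.49 ± 0.09, limma adjusted p = 0.00015), from 4292 to 5468 RPM at 10 weeks to 5531 to 9474 RPM at 30 weeks, ranges that did not overlap. It was lost only with median-of-ratios scaling (limma adjusted p = 0.0526) among the 11 alternatives. miR-30a-3p (0.46 ± 0.09) and miR-30e-3p (0.42 ± 0.09) also passed, and both were lost with median-of-ratios and TMM scaling, in edgeR and in DESeq2. miR-30e-5p (0.26 ± 0.09, limma adjusted p = 0.027) was lost in 5 alternatives and without each of 7 libraries (0.23, limma adjusted p = 0.0647 without library 18). The median of all miRNAs in this contrast was 0.11. Within genotypes limma called 3 members higher in WT-TRAMP and 2 in A537T-TRAMP, where 20 and 26 of all 514 miRNAs were. In KO-TRAMP it called 0 members higher and 1 lower, where 92 and 22 of all miRNAs were. The lower member was miR-30c-2-3p (log2 −0.72, limma adjusted p = 0.018), whose call was lost in 2 of 11 alternatives and without each of 4 libraries.

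Averaged over the genotypes, the TRAMP difference was less negative at 30 than at 10 weeks for 2 members, where 28.2% of all miRNAs had such a difference. The change was 0.42 ± 0.12 for miR-30a-3p (limma adjusted p = 0.011) and 0.38 ± 0.12 for miR-30c-5p (limma adjusted p = 0.021). The median of all miRNAs was 0.29, which leaves 0.13 and 0.09 relative to it. Both calls were lost with median-of-ratios or TMM scaling, in edgeR and in DESeq2, where the lowest values were 0.09 and 0.05. Within KO the TRAMP difference of miR-30a-3p was −0.77 at 10 weeks and −0.88 at 30 weeks, so it was not less negative there. That of miR-30c-5p was −0.79 and −0.60. Whether the change with age differed between genotypes was not tested. With median-of-ratios scaling and in DESeq2, 2 other members had a more negative TRAMP difference at 30 weeks instead, miR-30c-2-3p (−0.47, limma adjusted p = 0.032, and −0.48, DESeq2 adjusted p = 0.024) and miR-30d-5p (−0.73, limma adjusted p = 0.046, and −0.77, DESeq2 adjusted p = 0.028).

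Mutant and control lobes were then compared within each age and background. In 7 of the 8 comparisons limma called 0 of 8 members. These were KO against WT at 10 weeks (3.89% of all miRNAs called) and at 30 weeks (0.584%), A537T against WT at 10 weeks (0.195%) and at 30 weeks (0%), both mutants in the TRAMP background at 10 weeks (0% each) and A537T-TRAMP at 30 weeks (0%). At an unadjusted p under 0.05 limma had 1 and 2 members for KO and 2 and 1 for A537T at 10 and 30 weeks. It had 0 in the 3 TRAMP comparisons. For A537T at 10 weeks edgeR had 6 members and DESeq2 4, where 41 and 44 of all 514 miRNAs had such a p. For KO at 30 weeks they had 4 and 5, against 109 and 120 of all miRNAs. For KO at 10 weeks they had 2 and 3, against 94 and 106, and for A537T at 30 weeks 1 each, against 73 and 76. For KO against WT at 30 weeks edgeR called 1 member and DESeq2 2, and both called 0 in the other 6. Over all miRNAs, limma's count of 0 stood beside 7 in edgeR and 21 in DESeq2 for A537T at 30 weeks, and beside 0 and 0 for KO-TRAMP and 0 and 1 for A537T-TRAMP at 10 weeks. For A537T-TRAMP at 30 weeks it stood beside 1 and 8. At an unadjusted p under 0.05 limma counted 43, 26, 34 and 38 miRNAs in these 4 comparisons.

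In KO at 10 weeks miR-30a-5p, miR-30c-2-3p and miR-30d-5p lay outside the WT range, and the other members overlapped it. Of all 514 miRNAs, 103 had an unadjusted p under 0.05 in this limma comparison. miR-30a-5p had 19755, 18214 and 19048 RPM in KO, against 18145, 14162 and 11347 RPM in WT, without overlap. miR-30d-5p went the other way, with 7125, 7639 and 8230.3 RPM in KO and 9468, 11295 and 15957 RPM in WT. These gave log2 values of 0.41 ± 0.23 and −0.64 ± 0.27, and neither passed (limma adjusted p = 0.29 and 0.17). The WT libraries 28, 29 and 30 had skeletal muscle sums from 9.73% to 30.7% of reads and stroma sums of 30.4%, 15.5% and 7.21%. Library 30, with the highest muscle sum, had the lowest miR-30a-5p and the highest miR-30d-5p level of the 3. In A537T at 10 weeks, miR-30a-3p was below every WT library (−0.53 ± 0.15, limma adjusted p = 0.25).

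KO-TRAMP against WT-TRAMP at 30 weeks was the exception. miR-30a-3p had 709, 524 and 591 RPM in KO-TRAMP and 825, 894 and 835 RPM in WT-TRAMP, with no overlap, a log2 fold change of −0.50 ± 0.15 (limma adjusted p = 0.049). It was the 1 member called, in a comparison where 6.23% of all miRNAs were. The call was close to the threshold and was lost in 9 of 11 alternatives and in 25 of the 36 fits that left out a library (−0.39, limma adjusted p = 0.342 without library 17). The other locus members were also below WT-TRAMP in every library, and so was miR-30e-3p, at 335 to 405 RPM against 428 to 487 RPM. miR-30e-5p was above WT-TRAMP in every library, at 1803 to 2126 RPM against 1516 to 1690 RPM. None of these passed in limma with RPM. An unadjusted p under 0.05 was found for 104 of all 514 miRNAs in this limma comparison. miR-30c-2-3p had 133, 84.2 and 93.1 RPM against 162, 154 and 154 RPM (−0.62 ± 0.21, limma adjusted p = 0.073). It was called lower in 4 of the 12 settings, with median-of-ratios or TMM scaling, in edgeR and in DESeq2 (−0.67, adjusted p = 0.026), against 3 settings for miR-30a-3p. miR-30a-5p had 10036, 6686 and 9099 RPM against 13104, 10311 and 11440.5 RPM (−0.45 ± 0.23, limma adjusted p = 0.28).

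Without TRAMP at 30 weeks, the 3 locus members had positive values for KO against WT, none of which passed in limma with RPM. These were 0.61 ± 0.23 for miR-30a-5p, 0.38 ± 0.15 for miR-30a-3p and 0.39 ± 0.21 for miR-30c-2-3p. miR-30a-3p had 1184, 1039 and 1113 RPM in KO, above the 854, 837 and 869 RPM of WT. Among the other members, miR-30c-5p was also positive (0.30) and did not pass. It had 8884 to 10261 RPM in KO, above the 7350 to 8508 RPM of WT. For miR-30a-5p the groups overlapped, at 7726, 10812 and 9279 RPM in WT. Even so, miR-30a-5p was called higher with median-of-ratios scaling (log2 0.88, limma adjusted p = 0.031), in edgeR (0.89, adjusted p = 0.020) and in DESeq2 (0.95, adjusted p = 0.0019), and miR-30c-2-3p in DESeq2 (0.71, adjusted p = 0.014).

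**Figure D3:**
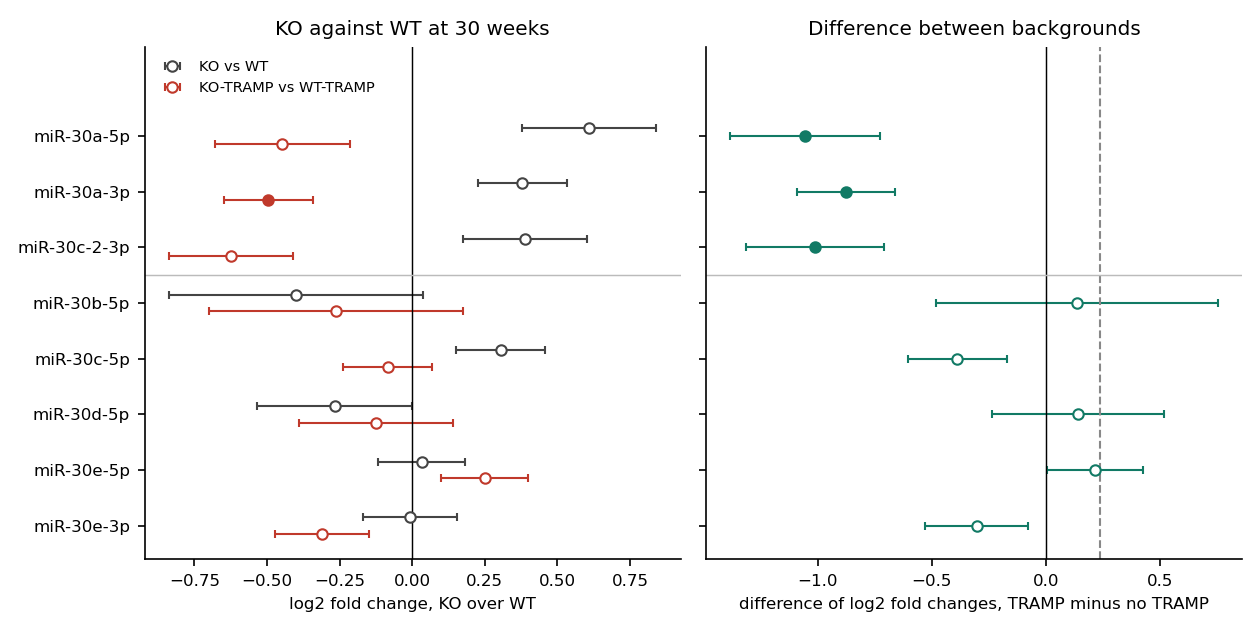
KO against WT at 30 weeks. Left, log2 fold change of each member without TRAMP (grey) and with TRAMP (red), and right, the difference between the 2, with the median of all miRNAs (0.24) dashed. Bars are standard errors and filled points passed a limma adjusted p of 0.05. The 3 locus members at the top lie right of 0 without TRAMP and left of 0 with it, as does miR-30c-5p below the line.

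The difference between the KO effects with and without TRAMP at 30 weeks was tested as an interaction, and the 3 members that passed were those of the locus. It was −1.05 ± 0.33 for miR-30a-5p (limma adjusted p = 0.047), −0.88 ± 0.22 for miR-30a-3p (limma adjusted p = 0.016) and −1.01 ± 0.30 for miR-30c-2-3p (limma adjusted p = 0.042). Of all 514 miRNAs 4 were called lower by limma with RPM, which is 0.778%, and 37 higher. The lower one outside the family was miR-676-5p (−0.92 ± 0.29, limma adjusted p = 0.049), named after its value was seen. The other 5 members did not pass, with −0.39 ± 0.22 for miR-30c-5p, −0.30 ± 0.23 for miR-30e-3p and 0.14 to 0.22 for miR-30b-5p, miR-30d-5p and miR-30e-5p. The median of all miRNAs was 0.24, and −0.06 with median-of-ratios scaling. Relative to the median of each setting, miR-30a-5p lay between −1.41 and −1.09 over the 12 settings, miR-30a-3p between −1.16 and −0.91 and miR-30c-2-3p between −1.34 and −1.05.

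Median-of-ratios scaling, TMM scaling, edgeR and DESeq2 called 14, 11, 15 and 20 of all 514 miRNAs lower, in that order. The 3 locus calls passed in each of these settings. All 3 were lost in a fit of only the 12 libraries compared and when the muscle and stroma lists were left out of the totals, while miR-30a-5p and miR-30c-2-3p were lost with no filter on low miRNAs and miR-30a-5p with no variance trend. Of the 36 fits that left out a library, miR-30a-3p lost its call in 4 (−0.89, limma adjusted p = 0.0616 without library 21), miR-30c-2-3p in 14 (−0.88, limma adjusted p = 0.138 without library 17) and miR-30a-5p in 25 (−0.88, limma adjusted p = 0.160 without library 17). Without KO library 23, where miR-30a-5p and miR-30c-2-3p were lowest of the 3, the values were −1.40 (limma adjusted p = 0.00846) and −1.34 (limma adjusted p = 0.00608). Stroma sums were 29.8%, 12.9% and 27.5% in KO libraries 22, 23 and 24 and 6.36%, 34.4% and 24.7% in KO-TRAMP libraries 16, 17 and 18. The neuroendocrine list of 4 (miR-375 and neural miRNAs) summed to 0.563%, 1.87% and 1.49% in the latter. Library 23 thus had the lowest stroma sum of its group and library 17 the highest of its group, and each was the lowest of its group in miR-30a-5p. Over all 9 interactions tested, 5 member calls were made, in 2 of them.

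Ratios of 2 members within a library do not depend on scaling and are given as descriptions. The log2 ratio of miR-30a-5p to miR-30d-5p was highest in KO at 10 weeks, at 1.31 ± 0.14 (SD, n = 3), and lowest in WT at 30 weeks, at −0.69 ± 0.54. Several groups were split. In KO at 30 weeks libraries 22 and 24 had 1.05 and 0.67 and library 23 had −1.17, and in A537T-TRAMP at 10 weeks library 5 had 0.79 and library 4 had −0.82. Libraries of 1 group thus differed as much as groups did.

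The log2 ratio of miR-30a-3p to miR-30e-3p, which differ by 1 base, was steadier. At 10 weeks its means were 1.45, 1.56 and 1.14 in WT, KO and A537T and 0.81, 0.84 and 0.93 in the TRAMP groups. At 30 weeks they were 0.92, 1.30 and 1.22 without TRAMP and 0.91, 0.72 and 1.07 with it. At 30 weeks the WT and WT-TRAMP means were thus close, while the KO and A537T means lay above their TRAMP counterparts, with SDs of 0.43 and 0.32.

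**Figure D4:**
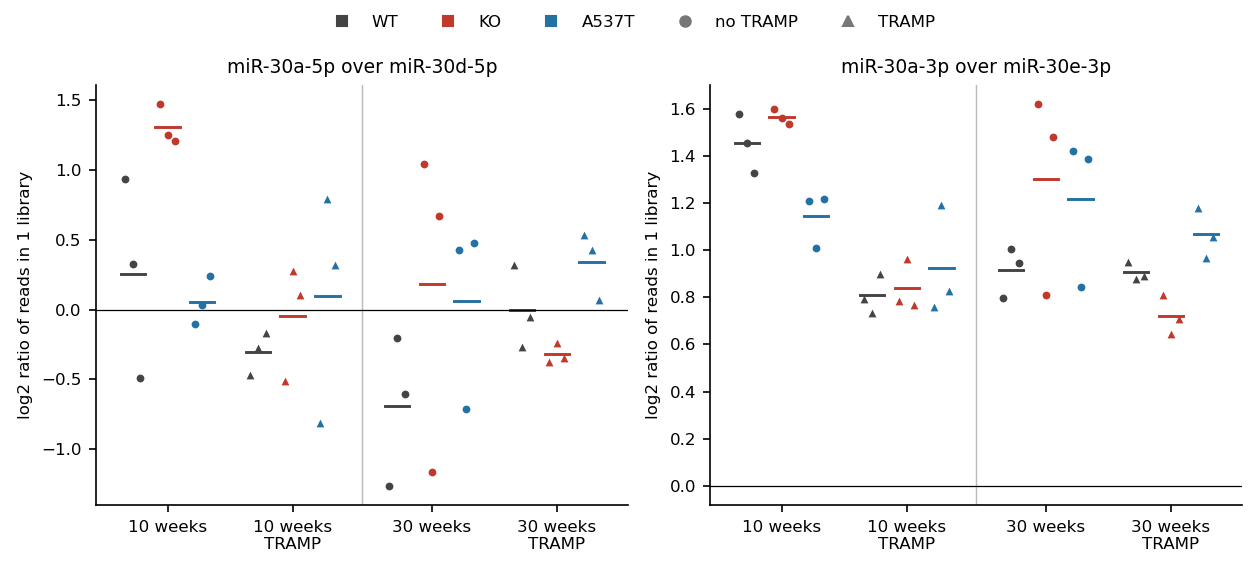
Log2 ratio of reads of 2 members within each library, miR-30a-5p over miR-30d-5p (left) and miR-30a-3p over miR-30e-3p (right), by age and TRAMP background. Points are libraries, circles without and triangles with TRAMP, and bars are group means of 3. KO at 10 weeks has the highest mean in both panels, 1.31 and 1.56.

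Across the 12 group means, members of the same locus did not always run together. miR-30a-5p went most closely with miR-30c-2-3p (Pearson r = 0.87), and miR-30a-3p with miR-30c-5p (r = 0.95). The 2 arms of Mir30a had r = 0.66, and the most abundant pair, miR-30a-5p and miR-30d-5p, had r = −0.55. These describe 12 points that share library make-up. Among the 154 miRNAs with a mean of at least 100 RPM outside the family, the 3 whose group means were most like those of miR-30a-5p were miR-10a-3p (r = 0.82), miR-10a-5p (r = 0.81) and miR-125b-2-3p (r = 0.74). For miR-30d-5p they were miR-200b-3p (r = 0.84), let-7a-5p (r = 0.78) and miR-340-3p (r = 0.78).

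Ordered by mean level, neighbouring groups mostly overlapped. For miR-30a-5p all 12 did so from one to the next, from KO at 10 weeks (19006 ± 772 RPM) to KO-TRAMP at 30 weeks (8607 ± 1728 RPM). miR-30c-2-3p had the same groups at its ends, at 271 ± 6.62 and 103 ± 25.9 RPM. miR-30c-5p had its highest mean in A537T at 30 weeks (9932 ± 2132 RPM) and a gap between KO-TRAMP at 30 weeks (6369.5 ± 727 RPM) and KO-TRAMP at 10 weeks (5263 ± 251 RPM), below which lay the 3 TRAMP groups of 10 weeks. miR-30a-3p had its gap between KO at 10 weeks (974 ± 28.5 RPM) and WT at 30 weeks (853 ± 16.5 RPM). miR-30e-5p was highest in A537T-TRAMP and KO-TRAMP at 30 weeks (1970.2 ± 269.7 and 1915 ± 183 RPM), of which KO-TRAMP lay above KO at 10 weeks (mean 1679 RPM, highest library 1765 RPM) and A537T-TRAMP, with 1659 RPM in library 15, overlapped it. miR-30b-5p varied most within groups, with 759.7 RPM in WT library 30 beside 3035 and 3274 RPM in the other WT libraries of 10 weeks.

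The minor strands of the other hairpins and the related Mir384 were listed as 6 further miRNAs, of which 5 passed the filter of a mean of 1 RPM. miR-30d-3p and miR-30b-3p, the partner arms of miR-30d-5p and miR-30b-5p, rose with TRAMP at 10 weeks (log2 0.75 ± 0.14 and 0.62 ± 0.17, limma adjusted p = 5.6e-05 and 0.0033), and miR-30d-3p also at 30 weeks (0.42 ± 0.14, limma adjusted p = 0.017). miR-30d-3p had 45.3 to 87.6 RPM with TRAMP and 27.8 to 47.4 RPM without at 10 weeks, overlapping by little. miR-30c-1-3p, from the Nfyc intron, fell at both ages (−0.46 ± 0.12 and −0.39 ± 0.12, limma adjusted p = 0.0018 and 0.011). It shares the seed of miR-30c-2-3p and differs from it by A9G, C12U and U22C. miR-30f had 7 reads in all 36 libraries together.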

How the data were processed

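Small RNA libraries were prepared with the Illumina TruSeq Small RNA kit and sequenced on a NovaSeq. The authors merged reads with BBMerge and counted mature miRNAs with mirDeep2 against miRBase, and the submitters' processing notes name GRCm38 and DESeq2. The 8 deposited tables hold a normalised count signal, reads divided by DESeq2 size factors within 6 libraries each. Columns carry a library number and no group or replicate, so groups were taken from the table names and from the control columns that 2 tables share, with "Mut" read as A537T. Whole reads could be recovered for 100% of values (tolerance 0.01), and the recovered reads of the 12 controls held by 2 tables did not differ between them. Columns of other samples numbered 0. The authors' comparison tables of shrunken log2 fold changes and s-values were not used.

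Each library was scaled to RPM, each column divided by its sum, and log2(RPM + 1) of the 514 miRNAs with a mean of at least 1 RPM was fitted with limma 3.58.1 (R 4.3.3, variance trend) as 12 group means with 24 residual degrees of freedom. P-values were two-sided and Benjamini-Hochberg adjusted over the miRNAs tested in each contrast, with a threshold of 0.05. Interactions came from the same fit. Alternatives were median-of-ratios and TMM scaling, totals without the muscle list or without the muscle and stroma lists (the latter chosen after the data were seen), a pseudocount of 10, no filter, a filter of 10 RPM, no variance trend, a fit of only the libraries compared, edgeR 4.0.16, DESeq2 1.42.0 and leaving out each library. The fit was also run on simulated reads, with changes larger than those of the members and none in the most abundant miRNAs. That run therefore does not show how well changes of the members' size are recovered. All 8 members are named, with 6 related miRNAs and the 3 miRNAs most like miR-30a-5p and miR-30d-5p. Members and lists were chosen with earlier results of these data known, and the arm ratios of Mir30b and Mir30d after their values were seen.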

Additional observations from a re-analysis of the deposited data

Results flagged for a closer look

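The effect of TRAMP, averaged over the genotypes, differed between ages for 2 of the 8 members, by the interaction term of the limma fit. Of all miRNAs tested, 28.2% were called in the same direction. The log2 difference at 30 weeks minus that at 10 weeks was 0.42 for miR-30a-3p and 0.38 for miR-30c-5p, with a median of 0.29 over all miRNAs tested. Both calls were lost with median-of-ratios or TMM scaling, in edgeR and in DESeq2. Within KO the TRAMP difference of miR-30a-3p was −0.77 at 10 weeks and −0.88 at 30 weeks, so it was not less negative there.

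The effect of the knockout at 30 weeks differed between the TRAMP and non-TRAMP backgrounds for the 3 members of the Mir30a and Mir30c-2 locus, again by the interaction term. With TRAMP minus without, it was −1.05 for miR-30a-5p, −0.88 for miR-30a-3p and −1.01 for miR-30c-2-3p. Of all 514 miRNAs, 4 were called lower by limma with RPM and 20 in DESeq2. At 10 weeks the same interaction was −0.24, 0.39 and −0.28 and did not pass (limma adjusted p = 0.70, 0.36 and 0.61).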

How the results depend on the processing

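Over the 13 main contrasts 17 of 104 member differences were called, and 1 of these changed sign under an alternative, miR-30e-3p between ages without TRAMP (log2 −0.0193 with totals lacking the muscle and stroma lists). Of the 87 not called, 24 changed sign under an alternative other than leaving out a library, and 23 without 1 library.

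For TRAMP at 10 weeks 5 members were called, all lower, against 3 (2 lower, 1 higher) with median-of-ratios scaling, TMM scaling or DESeq2, 3 lower in edgeR and 8 lower without the muscle and stroma lists. For age without TRAMP 1 was called, higher, against 3 higher with median-of-ratios scaling or in DESeq2, 2 higher with TMM scaling or a mean of 10 RPM, 1 lower without the muscle list, 3 lower without the muscle and stroma lists, and 0 with no filter, in edgeR or in a fit of only the libraries compared. For age with TRAMP 4 were called, all higher, against 1 lower with median-of-ratios scaling, 1 higher with TMM scaling and 2 (1 higher, 1 lower) in edgeR or DESeq2. For TRAMP with age 2 were called, both higher, against 2 other members, both lower, with median-of-ratios scaling or DESeq2, 0 with TMM scaling or in edgeR, 4 higher without the muscle list and 5 higher without both lists. For KO-TRAMP against WT-TRAMP at 30 weeks 1 was called (miR-30a-3p), 1 (miR-30c-2-3p) with median-of-ratios or TMM scaling or DESeq2, 2 in edgeR, and 0 without the muscle list, without both lists, with no filter, a mean of 10 RPM, no variance trend or only the libraries compared. For KO with TRAMP at 30 weeks 3 were called, 1 with no filter, and 0 without both lists or with only the libraries compared. For KO against WT 0 were called, 2 without the muscle list at 10 weeks and, at 30 weeks, 1 with median-of-ratios scaling or edgeR and 2 in DESeq2. For A537T against WT at 10 weeks 0 were called, and 1 without the muscle list. The causes were not tested.

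Leaving out each library gave 4 to 6 calls for TRAMP at 10 weeks, 4 to 5 at 30 weeks, 0 to 3 for age without and 3 to 4 with TRAMP, 2 to 3 for TRAMP with age, 0 to 3 for KO with TRAMP at 30 weeks and 0 to 2 for KO at 30 weeks in either background. The other 6 mutant comparisons had 0 in each of the 36 fits. No paired analysis was possible because the columns carry no replicate number. Precision is limited by 3 libraries per group, and the least abundant member had at least 102 reads in every library.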

Other observations

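Both chromosome 15 hairpins had lower median ratios of 5p to 3p reads in TRAMP lobes. The log2 ratio of miR-30d-5p to miR-30d-3p had a median of 7.46 (7.28 to 7.84) in the 9 TRAMP libraries of 10 weeks and 8.07 (7.53 to 9.05) in the 9 others. At 30 weeks the medians were 7.69 (7.45 to 8.01) and 8.34 (8.02 to 8.87), and the ranges did not overlap. For miR-30b-5p to miR-30b-3p the medians were 4.08 (3.71 to 4.79) with TRAMP and 5.36 (3.45 to 5.55) without at 10 weeks, and 4.29 (3.86 to 5.19) and 5.33 (3.55 to 5.54) at 30 weeks, with overlap. These ratios were chosen after their values were seen and carry no test.

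The Mir384 hairpin on the X chromosome, whose 5p arm shares the family's seed, was near the filter, at 3.43 RPM for miR-384-5p and 4.62 RPM for miR-384-3p over all libraries. At 30 weeks miR-384-5p had 0.178, 16.4 and 14.1 RPM in KO-TRAMP libraries 16, 17 and 18, and 0.343 to 0.947 RPM in KO. miR-384-3p had 0.178, 33.1 and 19.3 RPM in the former and 0.0686 to 0.904 RPM in KO. WT-TRAMP ran from 0.342 to 10.2 RPM for miR-384-5p and from 0.342 to 13.4 RPM for miR-384-3p at that age. WT ran from 0.587 to 7.98 RPM for the 5p arm and from 0.235 to 11.6 RPM for the 3p arm. In the A537T groups of that age neither arm was above 3.11 RPM. KO-TRAMP and KO overlapped, since library 16 had 2 reads of each arm and only libraries 17 and 18 were above KO. The log2 differences were 2.13 ± 0.84 (limma adjusted p = 0.048) and 2.61 ± 0.95 (limma adjusted p = 0.032), in a comparison where 27.2% of all miRNAs were called higher. The neuroendocrine list summed to 0.563%, 1.87% and 1.49% of reads in libraries 16, 17 and 18, and its part in this was not tested.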
